A study of Populus tremula x Populus alba with 72 samples.

Results

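Secondary wall cellulose synthases are the enzymes that spin cellulose into the thick walls of xylem vessels and fibres. In hybrid poplar leaves they were followed through 5 genes, picked by identifier from the 34699 genes listed: Potri.002G257900 (CesA4), Potri.006G181900 (CesA7-A), Potri.018G103900 (CesA7-B), Potri.011G069600 (CesA8-A) and Potri.004G059600 (CesA8-B). The selection rule used no expression value, but the genes were chosen with earlier results of these data known. All 5 passed the filter on low values that 27780 genes passed. The identifiers alone name the genes here, since their annotation and sequences were not analysed.

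Cellulose synthases work as subunits of a rosette-shaped complex in the plasma membrane. In Arabidopsis the complex that builds secondary walls needs CESA4, CESA7 and CESA8 together, and mutants that lack any of them have weak, collapsed xylem vessels; another set of cellulose synthases builds the primary wall of growing cells. In a leaf, secondary walls form mainly in the xylem and fibres of the veins, whose differentiation accompanies leaf expansion. Poplar keeps CesA7 and CesA8 as A and B copies, and such near-identical copies can share reads; whether counting split reads between them was not assessed, so values of single copies are uncertain to that extent.

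Trees of a single clone, INRAE 717-1B4 (Populus tremula x alba), 2.5 months old and raised from micropropagation, were exposed in climate chambers to charcoal-filtered air with 100 ppb ozone, the same air with 80 ppb ozone, or charcoal-filtered air alone (control). Ozone was supplied for 13 h of each day. Growing and expanded leaves were sampled on days 2, 8 and 13 of exposure, which gave 18 groups of 4 libraries of poly(A)-selected messenger RNA. All groups share the clone and the filtered base air. What a replicate number marks, a tree or a chamber, is not in the labels, and p-values cover the spread between libraries alone, which may be technical. The labelled leaf positions were not checked against marker genes.

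Between 23.2 M and 54.3 M reads fell on genes in a library (M stands for mega-reads), with a median of 39.4 M over the 72 libraries. Reads of the 5 genes together took between 0.000271% of a library (expanded leaves, 100 ppb, day 13) and 0.0611% (growing leaves, 80 ppb, day 13), and a single gene had 8 to 11797 reads in a library. Values below are the authors' normalised read counts, with mean ± SD over n = 4 libraries. They are compared between groups for each gene and not between genes, whose lengths were not used. Log2 changes ± SE are on the log2(normalised count + 1) scale from limma, which understates changes of low values, and a gene was called changed at a Benjamini-Hochberg adjusted p under 0.05 over all tested genes. The SE and p-value of a gene rest on 1 estimate of its spread over all 18 groups. Where the groups compared are more spread than that estimate, both are too small. In bulk tissue, fewer xylem or fibre cells and less RNA per such cell cannot be told apart.

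**Figure D1:**
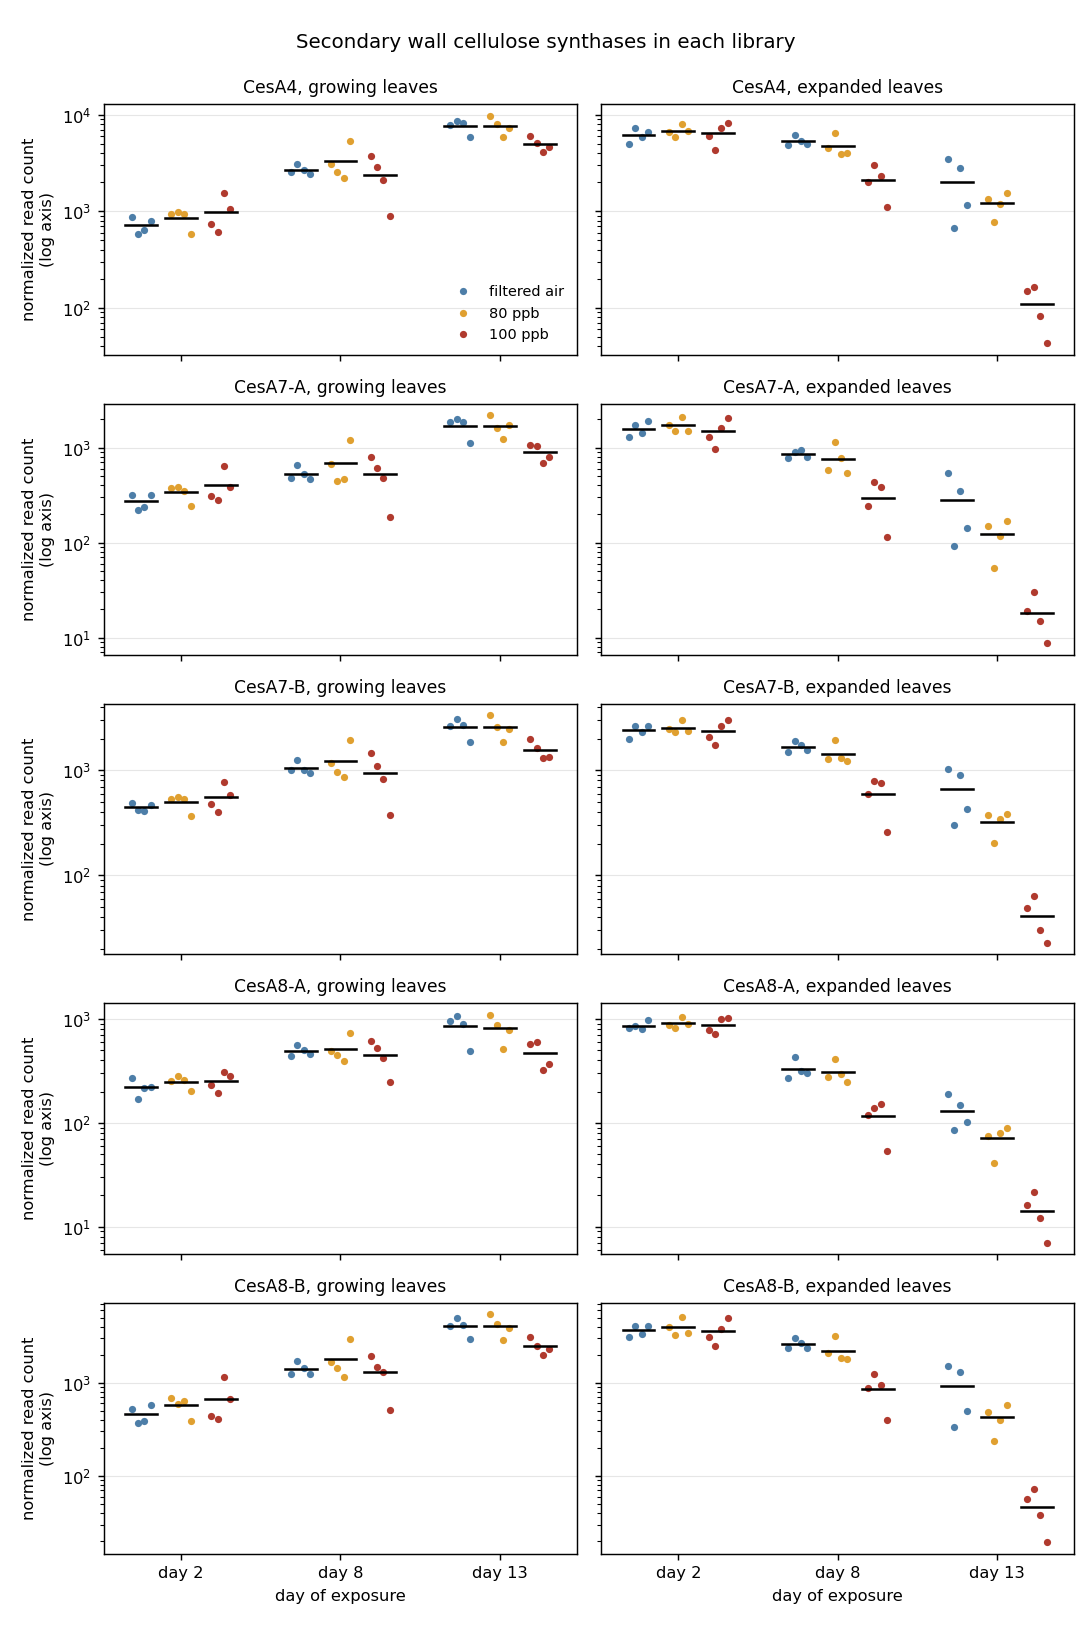
Normalised read counts of the 5 genes (log axis) in each library by day, leaf position and air, with filtered air, 80 ppb and 100 ppb from left to right within a day; points are libraries and bars are group means (n = 4). In expanded leaves the values at 100 ppb on day 13 lie below every other point of the same gene, and in growing leaves the group means climb with each sampling day.

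In filtered air the genes ran in opposite directions in the 2 leaf positions over time. CesA4 averaged 724 ± 141, 2699 ± 291 and 7578 ± 1216 normalised reads in growing leaves on days 2, 8 and 13, a 10.5-fold climb of the mean. In expanded leaves it averaged 6183 ± 956, 5322 ± 569 and 2022 ± 1324 on the same days. The highest of these means was in growing leaves on day 13 and the lowest in growing leaves on day 2. From day 2 to day 13 the mean of the other 4 genes climbed 3.91-fold (CesA8-A) to 8.74-fold (CesA8-B) in growing leaves, and in expanded leaves the day 2 mean was 3.62 (CesA7-B) to 6.57 times (CesA8-A) that of day 13.

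In growing control leaves all 5 genes rose between days 2 and 8. CesA4, the subunit with a single poplar gene here, had 2556, 3112, 2678 and 2449 normalised reads on day 8 and 881, 577, 637 and 800.1 on day 2 (log2 change 1.91 ± 0.36, adjusted p = 1.05e-05). CesA7-A changed least, with 476, 659, 529 and 467 on day 8 against 319.9, 219, 239 and 314 on day 2 (0.97 ± 0.39, adjusted p = 0.0341). The ranges of the days did not overlap for any of the 5. Genes called higher made up 25.6% of all tested genes (18.3% with libraries scaled to equal totals), and 27% of all genes were higher without overlap. The call for CesA7-A was lost without replicate 2 or 3 of day 2 or replicate 2 or 3 of day 8 (adjusted p between 0.056 and 0.0913), and at equal totals (log2 change 0.82, adjusted p = 0.0692).

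All 5 rose again between days 8 and 13 in these leaves, by 0.75 ± 0.28 (CesA8-A, adjusted p = 0.0268) to 1.65 ± 0.39 (CesA7-A, adjusted p = 0.000504). CesA7-A had 1836, 2019, 1842 and 1111 normalised reads on day 13, all above the day 8 values given above. For CesA8-A the ranges overlapped, with 966, 1077, 903 and 498 on day 13 and 439, 564, 507 and 460.0 on day 8, replicate 4 of day 13 being lower than the other day 13 libraries. The other 4 genes showed no overlap. Of all tested genes, 21.3% were called higher (30.1% at equal totals) and 23.4% were higher without overlap. The call for CesA8-A was lost without replicate 1 or 4 of day 8 or without replicate 1, 2 or 3 of day 13 (adjusted p between 0.0589 and 0.0927).

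In expanded control leaves CesA8-A fell between days 2 and 8. It had 270.3, 432, 316 and 300.0 normalised reads on day 8 and 816, 859.8, 808 and 977 on day 2 (log2 change -1.41 ± 0.28, adjusted p = 8.65e-05). It was the only one of the 5 called, against 19.1% of all tested genes called lower (11.2% at equal totals). The others had log2 changes of -0.21 ± 0.36 (CesA4, adjusted p = 0.678) to -0.88 ± 0.39 (CesA7-A, adjusted p = 0.0698). Even so, 4 of the 5 (all but CesA4) were lower on day 8 with no overlap, as were 20.4% of all genes. EdgeR and DESeq2 each called 2 of the genes, and limma on the compared libraries alone called 4. Of all 27780 tested genes these fits called 10192, 10877 and 11873 in either direction.

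Between days 8 and 13 all 5 fell in expanded control leaves. CesA8-B, whose product pairs with CesA4 and CesA7 in the complex, had 1521, 332, 1322 and 500.5 normalised reads on day 13 and 2388, 3043, 2677 and 2374 on day 8 (log2 change -1.78 ± 0.37, adjusted p = 0.00324). The day 13 libraries were split, with replicates 1 and 3 high and replicates 2 and 4 low, yet every one was below every day 8 library. The 5 log2 changes were -1.37 to -1.92 with adjusted p between 0.00288 and 0.00396, and none of the ranges overlapped. Few genes fell in this step: 1.75% of all tested genes were called lower and 3.59% were lower without overlap. All 5 calls were lost without replicate 2 of day 13 (adjusted p between 0.054 and 0.0921), and limma on the compared libraries alone called none (5 at an unadjusted p under 0.05, adjusted p between 0.178 and 0.322). That smaller fit called 0 of all 27780 tested genes, with 2729 at an unadjusted p under 0.05, while DESeq2 called 682 of all genes and all 5 of the list.

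Growing and expanded control leaves therefore changed rank between days 2 and 13. On day 2, CesA4 was lower in growing than in expanded leaves by 3.10 on the log2 scale (-3.10 ± 0.36, adjusted p = 6.45e-11), and CesA8-B had 524, 369.9, 386 and 572 normalised reads in growing leaves against 3105, 4064, 3384 and 4109.6 in expanded leaves (-3.00 ± 0.37, adjusted p = 4.08e-10). All 5 were called lower, with no overlap, and the smallest difference was that of CesA8-A (-1.98 ± 0.28, adjusted p = 2.33e-08). For comparison, 30.5% of all tested genes were called lower in growing leaves that day and 29.5% were lower without overlap.

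On day 8 only 2 of the 5 genes were called. CesA4 (-0.98 ± 0.36, adjusted p = 0.0171) and CesA8-B (-0.90 ± 0.37, adjusted p = 0.0339) were lower in growing leaves. CesA7-A (-0.68 ± 0.39, adjusted p = 0.135) and CesA7-B (-0.67 ± 0.31, adjusted p = 0.064) had differences of the same sign, and CesA8-A one of the other sign (0.59 ± 0.28, adjusted p = 0.0712). CesA8-A had 439, 564, 507 and 460.0 normalised reads in growing leaves against 270.3, 432, 316 and 300.0 in expanded leaves. None of the 5 overlapped between the positions, but neither did 56.9% of all genes, and 27.2% of all genes were called lower as deposited (44.1% at equal totals). Scaling to equal totals moved the median of all genes to -0.32 and gave 4 calls in place of 2, limma on the compared libraries alone gave 5, and DESeq2 gave 3, adding CesA7-B (adjusted p = 0.0468). Of all 27780 tested genes, limma on the compared libraries alone called 17129 in either direction and DESeq2 15361. The call for CesA8-B was lost without replicate 2 or 3 of the expanded leaves or replicate 1, 3 or 4 of the growing leaves (adjusted p between 0.0501 and 0.077), and CesA8-A was called without replicate 2 of the expanded leaves (adjusted p = 0.0396).

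By day 13 all 5 were higher in growing leaves. CesA7-A had 1836, 2019, 1842 and 1111 normalised reads in growing leaves against 543, 91.5, 352 and 143 in expanded leaves (2.88 ± 0.39, adjusted p = 1.19e-07). The other differences were 2.11 ± 0.31 (CesA7-B, adjusted p = 8.88e-07), 2.18 ± 0.36 (CesA4, adjusted p = 6.21e-06), 2.38 ± 0.37 (CesA8-B, adjusted p = 1.88e-06) and 2.71 ± 0.28 (CesA8-A, adjusted p = 2.53e-10). No ranges overlapped. Genes called higher made up 15% of all tested genes (9.60% at equal totals, where the median of all genes was -0.26), and 9.98% were higher without overlap. Limma on the compared libraries alone also called all 5, but with adjusted p between 0.0135 and 0.0406. In either direction that smaller fit called 1874 of all 27780 tested genes, against 6938 in the fit of all libraries.

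Ozone at 100 ppb left the 5 genes near their control levels in expanded leaves on day 2, then lowered all of them on days 8 and 13. On day 2 their means were 93.7% (CesA7-A) to 104% (CesA4) of the control means. CesA4 had 5993, 4325, 7256 and 8129 normalised reads at 100 ppb against 5006, 7234, 5896 and 6596 in controls, ranges that overlapped throughout. Limma, edgeR and DESeq2 each called 0 of the 5 on day 2 (0 at an unadjusted p under 0.05; limma adjusted p between 0.881 and 0.978), while 8.34% of all tested genes were called in either direction. The 95% intervals of the log2 changes lay within -0.92 and 0.74.

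On day 8 the means were 33.2% (CesA8-B) to 39.7% (CesA4) of those in controls. CesA4 had 2019, 3017, 2305 and 1102 normalised reads at 100 ppb against 4804, 6101, 5368 and 5015 in controls (log2 change -1.42 ± 0.36, adjusted p = 0.00395). CesA7-A, the A copy of the CESA7 subunit, had 239.9, 437, 382 and 114 at 100 ppb against 769, 903, 947 and 786 in controls (-1.70 ± 0.39, adjusted p = 0.0019). Its B copy, CesA7-B, had 599, 799, 751 and 256 against 1499.8, 1913, 1748 and 1562 (-1.60 ± 0.31, adjusted p = 0.000406). Replicate 4 at 100 ppb was the lowest library of its group for all 3 genes, and every 100 ppb library was below every control library.

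CesA8-A had 119, 141, 151 and 53.7 normalised reads at 100 ppb against 270.3, 432, 316 and 300.0 in controls on day 8 (-1.58 ± 0.28, adjusted p = 0.000176). CesA8-B had 875, 1242, 959.7 and 401 at 100 ppb against 2388, 3043, 2677 and 2374 in controls (-1.70 ± 0.37, adjusted p = 0.00106). So 5 of 5 were called lower without overlap, with a median log2 change of -1.60 against -0.01 over all genes. Over all tested genes, 8.51% were called lower and 8.89% were lower without overlap. All 5 calls held when any one library was left out, under the other settings tried, and by edgeR and DESeq2. With limma on the compared libraries alone the adjusted p were between 0.0306 and 0.0424. Of all 27780 tested genes that smaller fit called 1869 in either direction, edgeR 5921 and DESeq2 6375, against 5468 in the main fit.

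On day 13 the 5 means at 100 ppb were at 5.05% (CesA8-B) to 10.8% (CesA8-A) of the control means. CesA4 had 149.6, 164, 82.7 and 42.9 normalised reads at 100 ppb against 3457, 665, 2805 and 1159 in controls, a mean of 5.44% of the control mean (log2 change -4.08 ± 0.36, adjusted p = 2.28e-13). CesA8-B had 55.8, 73.1, 37.6 and 19.3 at 100 ppb against 1521, 332, 1322 and 500.5 in controls (-4.16 ± 0.37, adjusted p = 3.35e-13). Both groups were widely spread, and the highest 100 ppb library was still below the lowest control library. At 100 ppb a gene had 8 to 220 reads in a library, so counting error adds to this spread.

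CesA7-A had 19.0, 30.4, 15.0 and 8.76 normalised reads at 100 ppb against 543, 91.5, 352 and 143 in controls on day 13 (-3.67 ± 0.39, adjusted p = 9.31e-11). CesA7-B had 49.0, 63.3, 30.1 and 22.8 at 100 ppb against 1029.7, 301, 895 and 426 in controls (-3.90 ± 0.31, adjusted p = 3.02e-14). CesA8-A, the least lowered, had 16.3, 21.4, 12.2 and 7.01 at 100 ppb against 189.8, 85.6, 149.8 and 101 in controls (-3.15 ± 0.28, adjusted p = 6.39e-13). Again 5 of 5 were called lower without overlap, the median log2 change being -3.90 against -0.02 over all genes. That day 19% of all tested genes were called lower and 11.9% were lower without overlap. Limma on the compared libraries alone also called all 5, but with adjusted p between 0.00309 and 0.00683. In either direction that smaller fit called 6579 of all 27780 tested genes, against 11413 in the fit of all libraries.

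Set side by side over the days of exposure, the day 2 mean in expanded leaves was 57.4 (CesA7-B) to 81 times (CesA7-A) the day 13 mean at 100 ppb, 5.61 (CesA4) to 13.9 times (CesA7-A) at 80 ppb, and 3.06 (CesA4) to 6.57 times (CesA8-A) in controls. These ratios were not tested against each other.

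**Figure D2:**
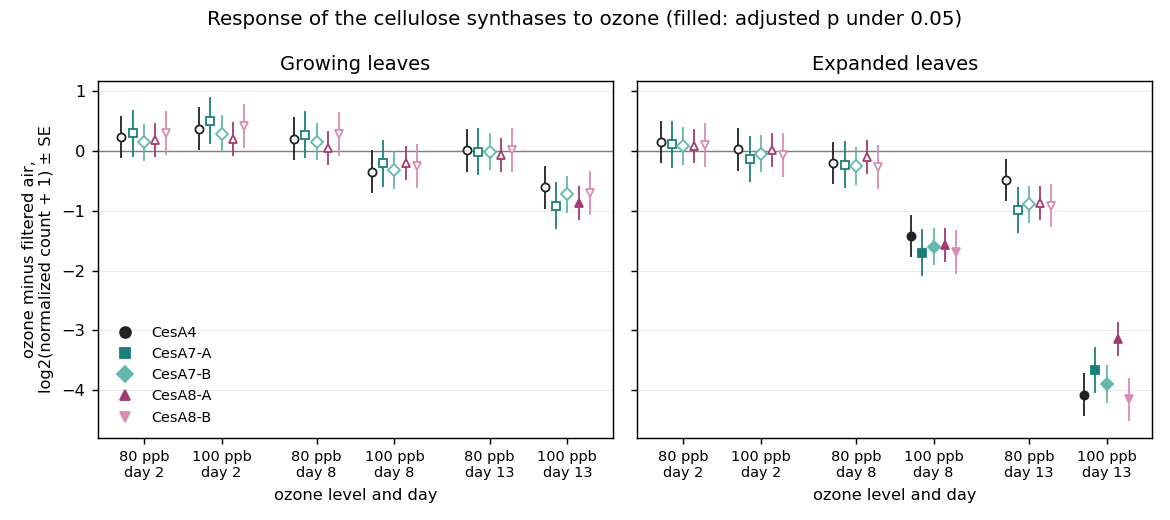
Log2 difference from filtered air ± SE (limma) for each gene at 80 and 100 ppb on days 2, 8 and 13. Growing leaves are on the left and expanded leaves on the right. Each difference is of 4 against 4 libraries, and the SE comes from the spread over all 72 libraries. Filled symbols have an adjusted p under 0.05. The filled symbols are the 5 genes at 100 ppb on days 8 and 13 in expanded leaves, between -1.42 and -4.16, and CesA8-A at 100 ppb on day 13 in growing leaves, at -0.87.

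In growing leaves 100 ppb ozone gave no call on days 2 and 8 and 1 call on day 13. On day 2 the means at 100 ppb were 115% (CesA8-A) to 148% (CesA7-A) of control means, with replicate 3 high: CesA4 had 734, 614, 1560.3 and 1058 normalised reads at 100 ppb against 881, 577, 637 and 800.1 in controls. Limma called 0 of the 5 genes, as did edgeR and DESeq2 (0 at an unadjusted p under 0.05), and only 0.054% of all tested genes. On day 8 replicate 4 was low: CesA4 had 3716, 2879.6, 2089 and 895 at 100 ppb against 2556, 3112, 2678 and 2449 in controls. That day too all 3 tools called 0 (0 at an unadjusted p under 0.05), and limma called 0.0396% of all genes. The 95% intervals of the log2 changes lay within -0.37 and 1.30 on day 2 and within -1.06 and 0.58 on day 8.

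On day 13 the means in growing leaves at 100 ppb were 52.6% (CesA7-A) to 65.6% (CesA4) of the control means. CesA8-A had 576, 599, 324 and 373 normalised reads at 100 ppb against 966, 1077, 903 and 498 in controls and was called lower (-0.87 ± 0.28, adjusted p = 0.0164), although its ranges overlapped, control replicate 4 being low. CesA7-A had 1072, 1026, 687 and 793 at 100 ppb against 1836, 2019, 1842 and 1111 in controls, the only gene of the 5 without overlap, but it was not called (-0.91 ± 0.39, adjusted p = 0.0736). CesA7-B (-0.72 ± 0.31, adjusted p = 0.0776), CesA8-B (-0.70 ± 0.37, adjusted p = 0.156) and CesA4 (-0.61 ± 0.36, adjusted p = 0.209) were not called either.

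Of all tested genes 11% were called lower that day (6.29% at equal totals, where the median of all genes was 0.13) and 11.1% were lower without overlap. EdgeR and DESeq2 each called 2 of the 5 and limma on the compared libraries alone called 4, all but CesA8-A (adjusted p = 0.0577). Of all 27780 tested genes these fits called 7895, 8264 and 7289 in either direction. The call for CesA8-A was lost when replicate 1 or 2 of the controls, or replicate 3 or 4 at 100 ppb, was left out (adjusted p between 0.0522 and 0.0946). Without control replicate 4, CesA7-A and CesA7-B were called as well (adjusted p = 0.0447 and 0.0484), and without 100 ppb replicate 1, CesA7-B was (0.0486).

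The response to 100 ppb was then compared directly between the leaf positions. On day 13 the difference of the log2 changes, growing minus expanded leaves, was 3.47 ± 0.50 for CesA4 (adjusted p = 7.1e-06), 2.75 ± 0.55 for CesA7-A (adjusted p = 0.00134) and 3.18 ± 0.44 for CesA7-B (adjusted p = 3.83e-06). It was 2.28 ± 0.40 for CesA8-A (adjusted p = 0.000212) and 3.46 ± 0.52 for CesA8-B (adjusted p = 1.55e-05). The log2 change was less negative in growing leaves for all 5 genes, a difference called in that direction in 1.93% of all tested genes (6.22% at equal totals). With limma on the libraries of the 4 compared groups alone, CesA7-B remained called (adjusted p = 0.0491) and the other 4 did not (adjusted p up to 0.107). That smaller fit called 17 of all 27780 tested genes, against 976 in the fit of all libraries.

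On day 8 the differences were 1.07 (CesA4) to 1.50 (CesA7-A), and none was called (5 of 5 at an unadjusted p under 0.05, limma adjusted p between 0.125 and 0.311). EdgeR called 0 and DESeq2 called 1, while limma called 0.0684% of all genes in either direction. Of all 27780 tested genes edgeR called 21 and DESeq2 221. On day 2 the differences were 0.18 to 0.64, with 0 called by any of the 3 tools (0 at an unadjusted p under 0.05), against 0.392% of all genes.

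At 80 ppb limma and edgeR called none of the 5 genes in either leaf position, and DESeq2 called 4 of them in expanded leaves on day 13. In expanded leaves the means were 106% to 111% of control means on day 2 and 85% to 94% on day 8, and the ranges overlapped for every gene. On day 13 they were 43.5% (CesA7-A) to 60.3% (CesA4) of the control means: CesA7-A had 149, 53.8, 117 and 171 normalised reads at 80 ppb against 543, 91.5, 352 and 143 in controls. The log2 changes that day were -0.48 ± 0.36 for CesA4, -0.86 ± 0.28 for CesA8-A, -0.89 ± 0.31 for CesA7-B, -0.91 ± 0.37 for CesA8-B and -0.98 ± 0.39 for CesA7-A, with limma adjusted p between 0.0909 and 0.485.

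Limma called 0 of 5 on each of these days in expanded leaves, and 0, 0 and 4 of them had an unadjusted p under 0.05 (days 2, 8 and 13). It called 0.0108%, 0.018% and 1.75% of all tested genes on those days. EdgeR also called 0 on each day, whereas DESeq2 called 0, 0 and 4. Of all 27780 tested genes, edgeR called 3, 5 and 766 on those days and DESeq2 8, 9 and 1135. Without 80 ppb replicate 4, CesA8-A was called on day 13 (adjusted p = 0.0407). Control replicate 2, the lowest control of day 13, was below the highest 80 ppb library for all 5 genes, so the ranges overlapped.

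In growing leaves the means at 80 ppb were 112% to 124%, 106% to 130% and 95.2% to 102% of control means on days 2, 8 and 13. CesA4 had 9781, 7914, 5860.2 and 7253 normalised reads at 80 ppb on day 13 against 7744, 8556, 8189 and 5822 in controls, a log2 change of 0.01 ± 0.36 with a 95% interval of -0.70 to 0.73. Limma, edgeR and DESeq2 called 0 of 5 on each of the days, and 0 had an unadjusted p under 0.05. Limma called 0%, 0% and 0.0144% of all genes. On days 2 and 8, 584 and 1240 of all tested genes had an unadjusted p under 0.05, edgeR called 0 and 0, and DESeq2 called 0 and 1.

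Set against 80 ppb, all 5 genes were lower at 100 ppb in expanded leaves on days 8 and 13. Early on, on day 2, the log2 changes were -0.06 to -0.24, and limma, edgeR and DESeq2 called 0 (0 at an unadjusted p under 0.05), against 6.84% of all genes. On day 8 CesA4 had 2019, 3017, 2305 and 1102 normalised reads at 100 ppb against 4474, 6485, 3871 and 4051 at 80 ppb (-1.22 ± 0.36, adjusted p = 0.0282). The other 4 changes were -1.35 to -1.48, all 5 were called, and none overlapped. Genes called lower were 3.04% of all tested genes, and 5.33% were lower without overlap.

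Those day 8 calls depended on single libraries. None of the 5 was called without 100 ppb replicate 4 (adjusted p between 0.113 and 0.228), 1 was called without 80 ppb replicate 1 and 1 without 80 ppb replicate 2 (CesA8-A each time), and 3 without 100 ppb replicate 1. Limma on the compared libraries alone also called none (5 at an unadjusted p under 0.05, adjusted p = 0.168 for each), whereas edgeR and DESeq2 called all 5. That smaller fit called 1 of all 27780 tested genes, against 2264 in the fit of all libraries, 3297 by edgeR and 3736 by DESeq2.

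On day 13 CesA4 had 149.6, 164, 82.7 and 42.9 normalised reads at 100 ppb against 1334, 783, 1203 and 1557 at 80 ppb in expanded leaves (-3.60 ± 0.36, adjusted p = 8.38e-11). The smallest change was that of CesA8-A, with 16.3, 21.4, 12.2 and 7.01 at 100 ppb against 74.1, 41.1, 79.5 and 90.0 at 80 ppb (-2.29 ± 0.28, adjusted p = 2.03e-08). All 5 were called lower without overlap and stayed called when any one library was left out. Over all tested genes 12.3% were called lower (19.3% at equal totals, where the median of all genes was -0.12) and 10.6% were lower without overlap. Limma on the compared libraries alone also called all 5, but with adjusted p between 0.00778 and 0.0128. In either direction that smaller fit called 5334 of all 27780 tested genes, against 8117 in the fit of all libraries.

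In growing leaves 1 of the 5 genes differed between the 2 ozone levels, on day 13. On days 2 and 8 the log2 changes of the 5 genes at 100 against 80 ppb were 0.01 to 0.21 and -0.24 to -0.55. Limma, edgeR and DESeq2 called 0 of 5 on both days (0 at an unadjusted p under 0.05). Of all tested genes limma called 0% and 0%, with 2267 and 818 at an unadjusted p under 0.05, edgeR called 0 and 0, and DESeq2 called 4 and 36. On day 13 CesA8-A had 576, 599, 324 and 373 normalised reads at 100 ppb against 1104, 881, 512 and 783 at 80 ppb (-0.80 ± 0.28, adjusted p = 0.045).

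CesA8-A was thus the only one of the 5 called on day 13, where 3.92% of all genes were called lower. The other changes were -0.62 to -0.91, and CesA7-A alone did not overlap, against 4.43% of all genes lower without overlap. Leaving out replicate 1, 2 or 4 at 80 ppb, or replicate 2, 3 or 4 at 100 ppb, ended the call for CesA8-A (adjusted p between 0.0565 and 0.214), as did 4 of the other settings.

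Ordered by mean over the 18 groups, each gene was lowest in expanded leaves at 100 ppb on day 13. The highest group was growing leaves at 80 ppb on day 13 for CesA4, CesA7-B and CesA8-B, and expanded leaves at 80 ppb on day 2 for CesA7-A and CesA8-A. The highest mean was 62.4 (CesA7-B) to 93.2 times (CesA7-A) the lowest. Most neighbours in this order were not separated: of 17 neighbouring pairs of groups, the ranges overlapped in 16 for CesA4, CesA8-A and CesA8-B and in 15 for CesA7-A and CesA7-B. The lowest group was apart from the one above it for all 5 genes. For CesA4 the top of the order held growing leaves of day 13 at 80 ppb (7702 ± 1629) and in controls (7578 ± 1216), followed by the expanded leaves of day 2, and the group just above the bottom was growing control leaves of day 2 (724 ± 141).

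The 5 genes also moved together from library to library within a group. In 59 of the 72 libraries all 5 were on the same side of their group means. Across libraries the deviations from the group mean correlated with r = 0.887 (CesA4 with CesA8-A) to 0.981 (CesA4 with CesA8-B), and over the 18 group means r was 0.875 to 0.997 (CesA7-B with CesA8-B). These correlations describe genes measured in the same libraries and share library, leaf and scaling. Ranked by their within-group correlation with a given member, the other 4 stood between places 1 and 20 among 27779 genes. By correlation over the 18 group means they stood between places 1 and 320, and over the 72 libraries between places 1 and 144. The last place was that of CesA4 for CesA8-A in both of these rankings.

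Some groups were far more spread for these genes than for the rest of the transcriptome. In expanded control leaves of day 13 the median SD of the 5 genes was 1.07 on the log2 scale, against 0.31 over all genes, and in growing leaves at 100 ppb on day 8 it was 0.84 against 0.20. In the first group replicate 1 was above and replicate 2 below the mean for every gene, and in the second replicate 1 was above and replicate 4 below. In growing control leaves of day 8, by contrast, the median SD of the 5 genes was 0.18 and that of all genes 0.15.

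**Figure D3:**
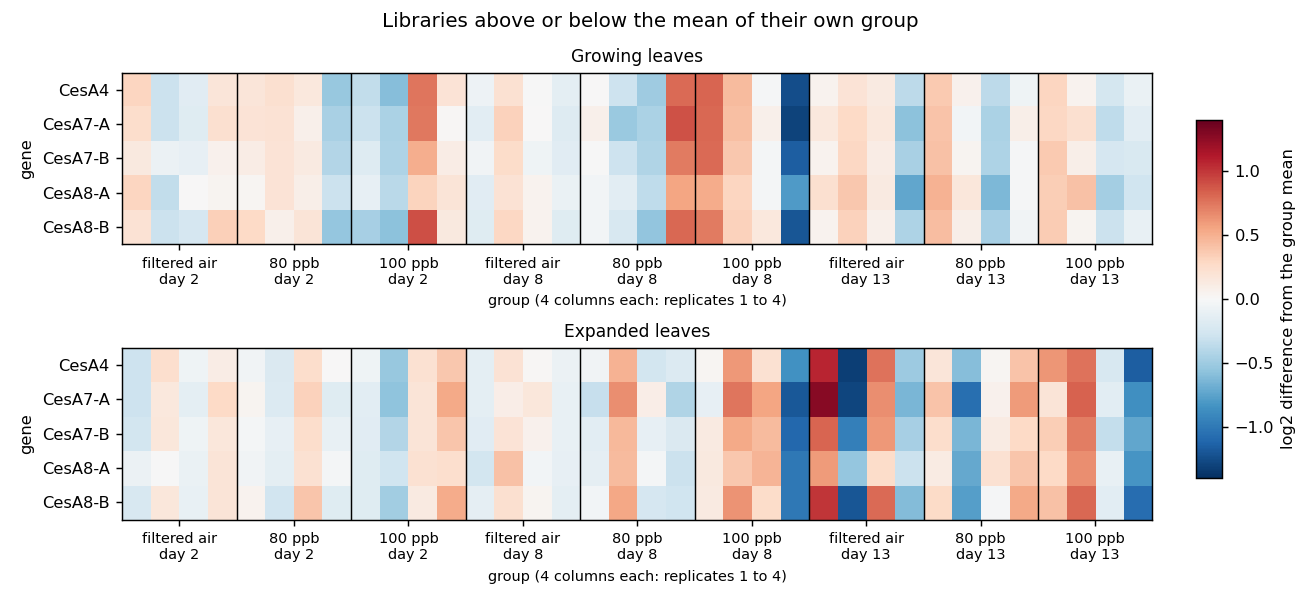
Log2 difference of each library from the mean of its own group (colour; red above, blue below) for the 5 genes in rows and the 4 replicates of each group in columns, with growing leaves above and expanded leaves below. Columns are mostly of 1 colour from top to bottom: in 59 of 72 libraries all 5 genes are on the same side of the group mean.

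Expression of the copies of a subunit was compared as a log2 ratio of A over B within each library, on normalised read counts plus 1. Only changes of the ratio are read, since gene lengths were not used. The CesA8 ratio was -1.06 ± 0.23 in growing and -2.08 ± 0.13 in expanded control leaves on day 2, and -1.51 ± 0.07 in growing and -3.00 ± 0.14 in expanded leaves on day 8. On both days every growing leaf library was above every expanded one, with differences of 1.02 and 1.49. On day 13 the ratios were -2.26 ± 0.20 in growing and -2.59 ± 0.57 in expanded leaves and overlapped.

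At 100 ppb on day 13 the CesA8 ratio in expanded leaves was -1.58 ± 0.18, against -2.59 ± 0.57 in controls, a difference of 1.01 without overlap, CesA8-B being the lower copy relative to its own control. At these low read numbers the pseudocount of 1 can shift the ratio. The CesA7 ratio was -0.61 ± 0.10 in growing and -1.39 ± 0.34 in expanded control leaves on day 13, a difference of 0.78 without overlap. These 4 of 18 comparisons reached the smallest p that an exact two-sided permutation test of 4 against 4 libraries allows, 0.0286, and none passed after adjustment over the 18 (adjusted p = 0.129). With that limit none could pass unless most of the 18 reached it. The adjusted result therefore cannot decide whether these 4 ratios differed. The other 14, among them the CesA7 ratio at 100 ppb in expanded leaves on day 13 (0.24, exact permutation p = 0.286), had larger p.

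**Figure D4:**
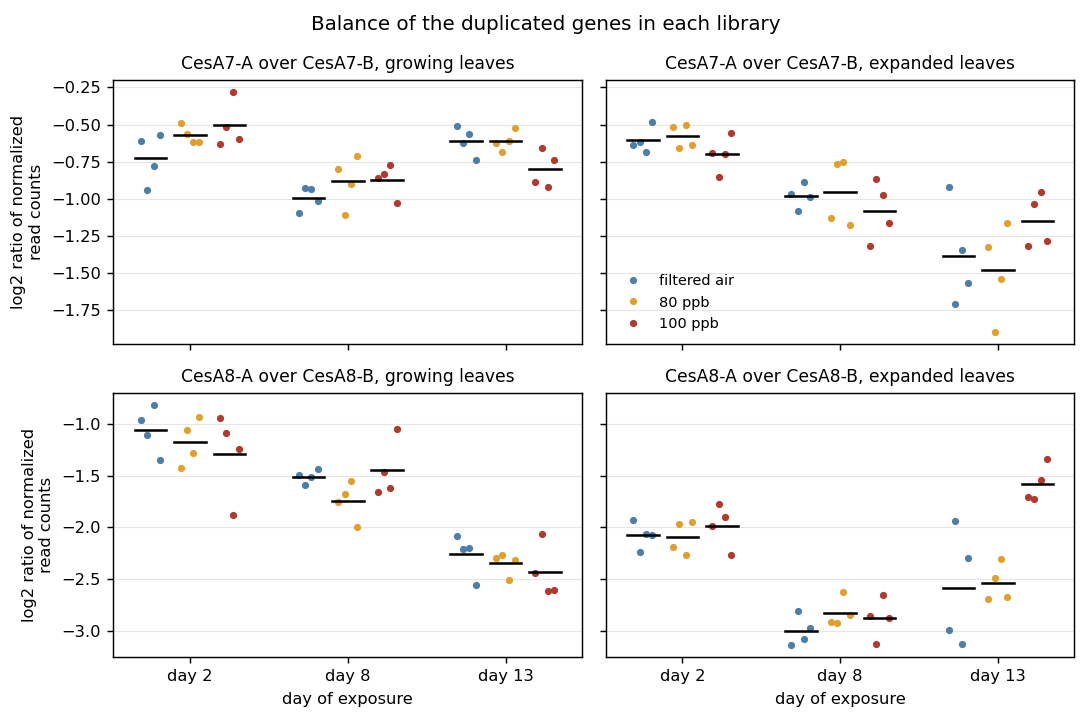
Log2 ratio of the A over the B copy of CesA7 (top) and CesA8 (bottom) in each library by day, leaf position and air, in the same order and colours as the plot of normalised counts; bars are group means (n = 4). The CesA8 ratio at 100 ppb on day 13 in expanded leaves averages -1.58 against -2.59 in filtered air, and in filtered air on days 2 and 8 it is higher in growing than in expanded leaves.

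Outside the list, Potri.004G211900 followed the mean profile of the 5 genes most closely, with r = 0.997 over the 18 group means and 0.991 over the 72 libraries. It had 15.8 ± 9.62 normalised reads at 100 ppb and 278 ± 190.4 in controls in expanded leaves on day 13. Next was Potri.003G003801 with r = 0.996 and 0.987, and 2.66 ± 3.24 at 100 ppb against 66 ± 36.1 in controls in those leaves. Of 27775 other tested genes, 139 had r of at least 0.9 over the group means and 60 had at least 0.95. What these genes encode was not analysed here.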

How the data were processed

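Poly(A)-selected RNA of 72 leaf libraries was read in pairs from stranded libraries, per the labels' protocols. The authors deposited 1 table of normalised counts per gene and library, a signal without further description. The submitters' processing notes name DESeq2 1.24.0, Subread 1.6.1, featureCounts and TopHat2 2.12; their roles and parameters and the genome build are not given in the sources used here. Values in a column are all multiples of 1 step (100% within 0.01 reads), so whole reads were recovered for the count models; in 2 columns the step was within 1% of 1.

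Genes that reached 10 in 4 or more libraries (27780) were tested with limma 3.58.1 (R 4.3.3) on log2(value + 1): 18 group means, all 72 libraries, eBayes with trend, 54 residual degrees of freedom, two-sided, Benjamini-Hochberg over all tested genes in each of 28 contrasts, called under 0.05. Intervals are at 95%. Ratios of copies were tested by exact permutation (scipy 1.17.1). The tests were tried on simulated counts, in which a gene had the same dispersion (spread of counts) in all groups. That trial cannot speak to groups of unequal spread. No 2 libraries correlated above r = 0.990.

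Each library was left out in turn; the other settings tried were a pseudocount of 8 or 0.25, a filter at 50 or none, equal totals, TMM, a replicate block, robust eBayes, a fit of the compared libraries alone, edgeR 4.0.16 (quasi-likelihood) and DESeq2 1.42.0. Groups come from the labels. The 5 genes, the lists and the tests were chosen with earlier results of these data known. Outside the 5, the 2 genes whose group means correlate best with theirs are named (mean of at least 100 in the highest group). Lists of pathway and cell type genes by product description could not be made from the table, which holds identifiers only, and sequences were not used here.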

Additional observations from a re-analysis of the deposited data

Results flagged for a closer look

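Within groups of 4, 1 library stood apart from the other 3 in 4 of the 90 combinations of gene and group by most of the group's range; chance flags about 1 in 20 groups. In growing leaves at 80 ppb on day 2, replicate 4 was low for CesA4 (584 normalised reads, others 929 to 980.5) and for CesA7-B (370.3, others 532 to 563). In growing control leaves on day 13, replicate 4 was low for CesA7-A (1111, others 1836 to 2019). In expanded leaves at 80 ppb on day 8, replicate 2 was high for CesA7-B (1931, others 1224 to 1300.1).

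The change at 100 ppb on day 13 differed between growing and expanded leaves for all 5 genes in a direct limma test of the difference on all libraries. A difference in that direction was called in 1.93% of all tested genes (6.22% at equal totals). Limma on the compared libraries alone kept 1 of the 5 calls, that of CesA7-B (adjusted p = 0.0491). The differences of the log2 changes, growing minus expanded, were 3.47 for CesA4, 2.75 for CesA7-A, 3.18 for CesA7-B, 2.28 for CesA8-A and 3.46 for CesA8-B.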

How the results depend on the processing

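No called change of a gene turned its direction under any alternative; log2 changes of genes or of ratios of copies that were not called had the other sign in 62 fits with a library left out and in 10 with another setting. With limma on the compared libraries alone the count was 4 in place of 1 at 100 ppb in growing leaves on day 13, 0 in place of 5 at 100 against 80 ppb in expanded leaves on day 8, 0 in place of 1 at 100 against 80 ppb in growing leaves on day 13, 5 in place of 2 for growing against expanded controls on day 8, 4 in place of 1 for expanded controls on day 8 against day 2, 0 in place of 5 for day 13 against day 8 there, and 1 in place of 5 for the difference of responses on day 13. EdgeR and DESeq2 each called 2 in expanded controls on day 8 against day 2 and 2 at 100 ppb in growing leaves on day 13. DESeq2 also called 4 at 80 ppb in expanded leaves on day 13, 1 for the difference on day 8 and 3 in place of 2 for growing against expanded controls on day 8. The single call at 100 against 80 ppb in growing leaves on day 13 went to 0 with a pseudocount of 0.25, with no filter and at equal totals, which gave 4 for growing against expanded controls on day 8. The cause of these shifts was not tested.

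With each library left out in turn the count was 0 to 3 at 100 ppb in growing leaves on day 13, 0 to 1 at 80 ppb in expanded leaves on day 13, 0 to 5 for 100 against 80 ppb in expanded leaves on day 8, 0 to 1 for that contrast in growing leaves on day 13, 1 to 2 for growing against expanded controls on day 8, 0 to 5 for expanded controls on day 13 against day 8, and 4 to 5 for growing controls on day 8 against day 2 and on day 13 against day 8. The other 20 counts did not move. For the ratios of copies, leaving out 1 library raises the smallest possible exact permutation p to 0.0571. Same-numbered libraries did not deviate together in all 4 pairs of any contrast, so replicate numbers were not treated as pairs; with a replicate block the count of called genes was the same in each of the 28 contrasts, for example 5 at 100 ppb in expanded leaves on day 13. Depth limits the lowest group, where a gene had as few as 8 reads in a library.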
